A study of Mus musculus with 4 samples.

Results

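The 38 genes described here mark microglia, the resident macrophages of the brain, or belong to the inflammatory signaling that feeding on fat and sugar has been linked to in the hypothalamus. They were taken from a list of gene symbols, after the estimated counts of all RefSeq transcripts of a gene had been summed. Of the 38 genes, 35 had a row in the table used here and 34 had enough counts to be tested, out of 16339 genes with a row and 14344 tested. The 10 genes of homeostatic microglia were kept apart from 12 genes of complement, phagocytosis and immunoreceptors, and from 16 genes of antigen presentation, pattern recognition, cytokine, NF-kB and acute phase signaling. Il1b, Tnf and Ccl2, which encode an interleukin, tumor necrosis factor and a chemokine for monocytes, had no row. The lowest total of a listed transcript over the 4 libraries was 10 estimated counts. A missing row gives no level, and whether it marks a total below that is not known.

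Male C57BL/6 mice had received a western diet (WD), that is, a diet of 60% fat and a sucrose solution of 30%, for 12 weeks before hypothalamic RNA was sequenced. WT WD and Tas1r3-/- WD were compared with 2 libraries each, to ask how the loss of TAS1R3, a subunit of the sweet and umami taste receptors, alters hypothalamic transcripts under this diet. Both groups received this diet, the knockout was constitutive and not limited to a cell type, and the controls were WT littermates. The labels give 23 to 25 g as the weight of the mice that were housed but no body weight at collection. The study reports a smaller weight gain on this diet in its Tas1r3-/- mice than in its WT mice, so weight and genotype cannot be told apart. The labels number the replicates without saying that each came from a separate mouse, so p-values measure the spread between these samples only. The study describes more mice per group for its sequencing than there are libraries here, and any others were not analysed here.

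Microglia survey brain tissue with fine processes and are held in a resting state by colony-stimulating factor, TGF-beta and neuronal signals such as fractalkine. In the hypothalamus, saturated fat can act on Toll-like receptors of these cells, which signal through the adaptor MYD88 to the IKK complex. IKK marks the inhibitor IkB-alpha for breakdown, and NF-kB then enters the nucleus and switches on cytokine genes as well as the gene of its own inhibitor.

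The depth of the WT WD libraries was 5801550 and 6155764 estimated counts over named genes, and that of the Tas1r3-/- WD libraries was 6180137 and 5728729. Levels are given below as CPM, a gene's counts relative to the size of its library after TMM scaling in edgeR, and 3 counts corresponded to between 0.485 and 0.524 CPM. Tas1r3 (chr4:155943725-155947819, minus strand, GRCm39), the targeted gene, was at 6.01 and 4.45 CPM in WT WD and at 1.12 and 1.23 CPM in Tas1r3-/- WD. Both knockout libraries were thus below both WT libraries, as the labels state. Tas1r3 had a log2 fold change of -2.13 ± 0.42 (SE), with an adjusted p of 0.756 by edgeR's quasi-likelihood test.

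Of the 4 libraries, 2 stood apart from the rest in genes of other cells and regions. In WT WD replicate 2, 15 hypothalamic neuropeptide genes summed to 85.0 CPM, against 2153, 1554 and 1510 CPM in WT WD replicate 1 and Tas1r3-/- WD replicates 1 and 2. The same library had 2820 CPM of thalamic marker genes, 1960 CPM of red blood cell genes and 1136 CPM of choroid plexus genes, each the highest of the 4 libraries. It therefore went against its label of hypothalamus. In Tas1r3-/- WD replicate 1, pituitary hormone genes summed to 1451 CPM, where the other libraries had 14.6, 2.14 and 4.56 CPM, and growth hormone transcript Gh alone was at 762 CPM. Over all genes tested, the root mean square log2 difference was 0.76 between the WT WD libraries and 0.37 between the Tas1r3-/- WD libraries. Over the members it was 0.33 and 0.49, so for these genes the knockout libraries were the pair farther apart.

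**Figure D1:**
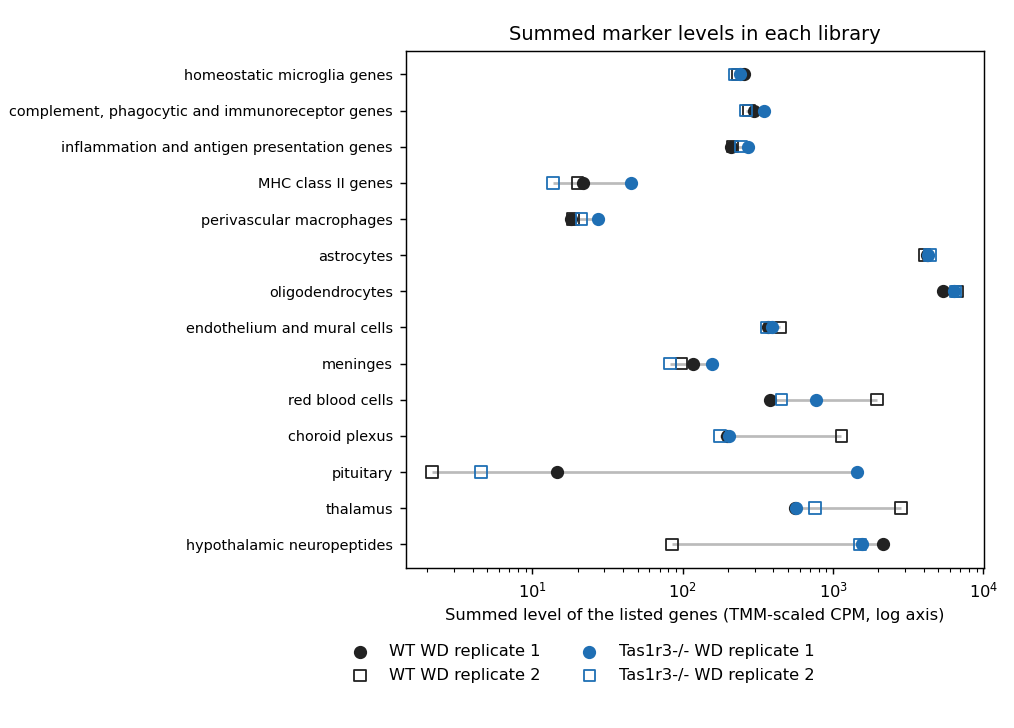
Summed level of listed marker genes (x axis, TMM-scaled CPM, log axis) in each of the 4 libraries, with a grey line from the lowest to the highest. The homeostatic microglia sums lie between 221 and 255 CPM, whereas the neuropeptide sum of WT WD replicate 2 and the pituitary sum of Tas1r3-/- WD replicate 1 lie far from the other libraries.

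No member passed an adjusted p under 0.05 with a fold change of at least 1.5, and over all 14344 genes the share that passed was 0% by edgeR's quasi-likelihood test. The adjusted p of the members ranged from 0.756 to 0.980, while DESeq2 called 8 genes of the whole table and again no member. At an unadjusted p under 0.05, Tlr4 and Myd88 were higher in Tas1r3-/- WD, which is 5.88% of the tested members beside 3.5% of all genes tested. Tlr4 passed the low-count filter only through the knockout libraries, and without it the share was 3.03%. P2ry13 alone was lower, which is 2.94% beside 1.88% of all genes. Both knockout libraries lay above both WT libraries for 9 members, or 26.5%, beside 20.6% of all genes, and for 24.2% without Tlr4. They lay below both WT libraries for 5 members, or 14.7%, beside 19% of all genes. By group, 7 of the 12 tested genes of inflammation and antigen presentation lay above (58.3%) and 1 below (8.33%), and without Tlr4 6 of 11 lay above (54.5%). Of the 10 homeostatic genes, 1 lay above (10%) and 4 below (40%), and of the 12 complement, phagocytic and immunoreceptor genes, 1 lay above and 0 below. With 2 libraries a group the smallest p of an exact two-sided permutation test for 1 gene is 0.333. The log2 fold change exceeded the difference between replicates in both groups for 11 members, and for 25.8% of all genes tested.

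The median log2 fold change of the 34 tested members was 0.08, beside -0.01 for all genes tested, and 19 of them had the higher mean in Tas1r3-/- WD. It was -0.08 for the homeostatic genes, 0.07 for the complement, phagocytic and immunoreceptor genes, and 0.52 for the 12 tested genes of inflammation and antigen presentation. Without WT WD replicate 2, these medians were -0.12, 0.06 and 0.44. Without Tas1r3-/- WD replicate 1, they were -0.15, -0.10 and 0.32. Tlr4 is among the inflammation genes, and without it their median was 0.51 over all 4 libraries. Leaving out the WT replicate 2 as well lowered it to 0.36, and the knockout replicate 1 to 0.25. Homeostatic markers thus had lower medians than inflammation genes in each of these fits, with Tlr4 or without it, and the sign for the phagocytic genes rested on 1 library. Genes of other kinds also differed between the same libraries. Immediate early genes, which active neurons switch on within minutes, had a median log2 fold change of 0.48. Of 13 tested, 8 lay above (61.5%) and 1 below (7.69%) in both knockout libraries, beside 20.6% and 19% of all genes. The sum of the immediate early genes, led by Egr1, came to 308 and 368 CPM in the WT libraries, against 482 and 520 CPM in the knockout libraries. Genes of ependyma and tanycytes, the cells that line the third ventricle, had a median of -0.64, with 0 of 10 above and 4 below (40%). Their sum, led by Foxj1, came to 158 CPM in either WT library, against 126 and 114 CPM in the knockout libraries. The part of either in the values of the members was not tested.

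**Figure D2:**
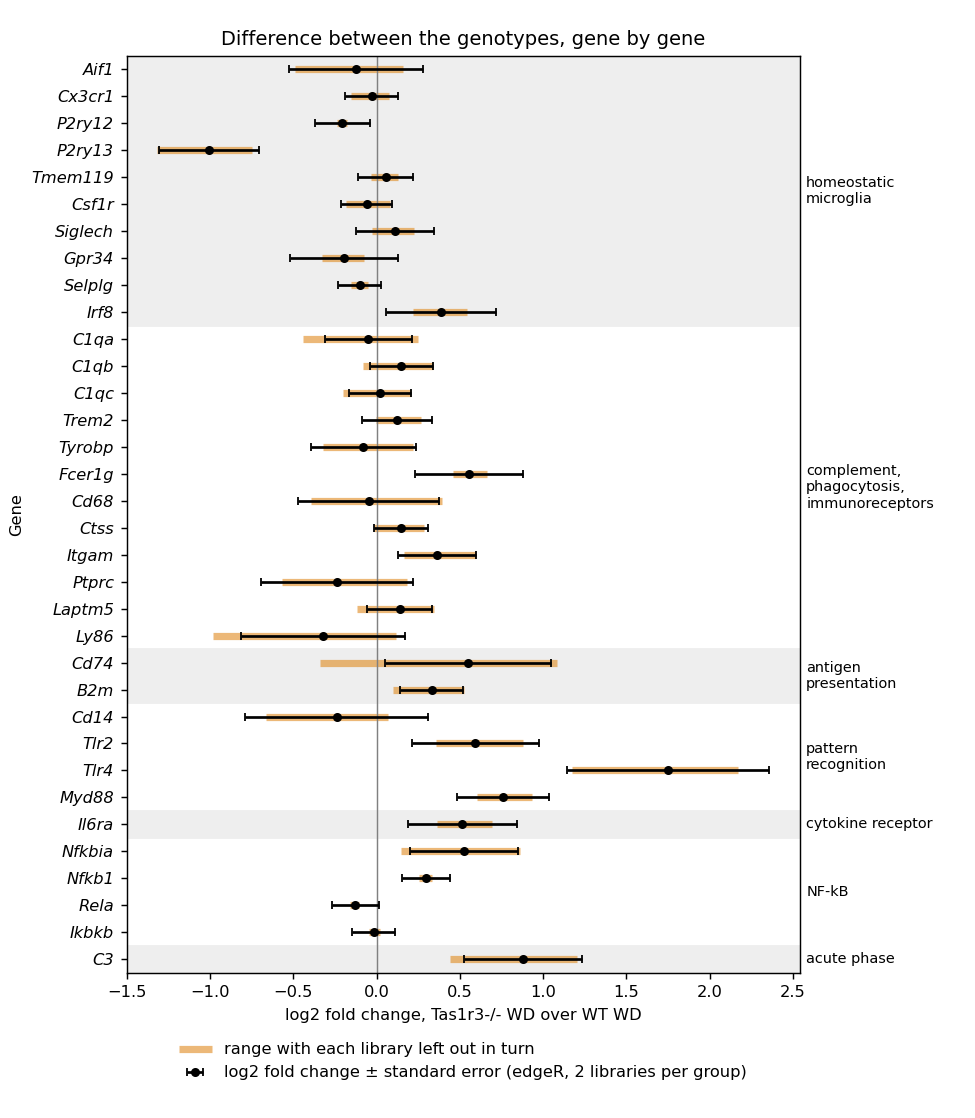
Log2 fold change of each tested member, Tas1r3-/- WD over WT WD (x axis), as a point with its standard error from edgeR (2 libraries per group), and as an orange bar the range when each library was left out in turn. P2ry13 lies farthest to the left at -1.005 and Tlr4 farthest to the right at 1.75, and the bars of 18 genes reach across 0.

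Homeostatic microglia genes were measured in all 4 libraries and summed to similar levels. Their sum was 255 and 232 CPM in WT WD replicates 1 and 2 and 239 and 221 CPM in Tas1r3-/- WD replicates 1 and 2, the highest being 1.15 times the lowest. In bulk tissue, fewer microglia and less RNA of these genes per cell cannot be told apart. By length of the canonical transcript, the highest mean level among the 10 was that of Selplg, which encodes a ligand of P-selectin, at 23.4 CPM per kb. Csf1r, the receptor of colony-stimulating factor that microglia need for survival, followed at 14.0 CPM per kb, and Irf8, a transcription factor of the myeloid lineage, was lowest at 0.958 CPM per kb.

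P2ry13 (chr3:59114539-59118304, minus strand) encodes a receptor for ADP. It was at 11.7 and 10.7 CPM in WT WD and at 4.50 and 6.66 CPM in Tas1r3-/- WD, from 68 and 65 against 28 and 38 estimated counts. Both knockout libraries were below both WT libraries, and the gap between the groups was wider than the gap within either. The means were 11.2 ± 0.686 and 5.58 ± 1.53 CPM (SD, n = 2), and the log2 fold change was -1.005 ± 0.30 (SE), with an unadjusted p of 0.0211 and an adjusted p of 0.756 by edgeR's quasi-likelihood test. Leaving out each library in turn gave log2 fold changes from -1.32 to -0.75. P2ry13 lies inside Med12l, a subunit gene of the Mediator kinase module on the opposite strand, and whether the authors counted reads by strand is not given in the sources used here. Med12l was at 55.3 and 52.6 CPM in WT WD and at 64.9 and 71.7 CPM in Tas1r3-/- WD, which is the opposite order.

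P2ry12 (chr3:59123682-59170429, minus strand), the ADP receptor that guides microglial processes toward injury, is the neighbor of P2ry13 and shares exonic bases with Med12l. It was at 19.9 and 19.8 CPM in WT WD and at 16.9 and 17.5 CPM in Tas1r3-/- WD. The order of the groups was the same as for P2ry13 with a smaller gap, since the log2 fold change was -0.21 ± 0.17 (SE), with an adjusted p of 0.774 by edgeR's quasi-likelihood test. Gpr34, a lysophosphatidylserine receptor, was at 4.47 and 4.78 CPM in WT WD and at 3.70 and 4.38 CPM in Tas1r3-/- WD. Selplg was at 46.2 and 44.5 CPM in WT WD and at 43.9 and 40.7 CPM in Tas1r3-/- WD. For both genes the knockout libraries were below the WT libraries, but by less than the difference between the knockout replicates.

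Irf8 was the homeostatic gene with the groups in the other order, at 4.64 and 3.79 CPM in WT WD and at 6.10 and 4.91 CPM in Tas1r3-/- WD. The groups overlapped for the other homeostatic genes, whose log2 fold changes ran from -0.12 for Aif1 to 0.11 for Siglech. Cx3cr1, the fractalkine receptor, was at 39.0 and 34.6 CPM in WT WD and at 38.9 and 33.1 CPM in Tas1r3-/- WD, so the replicates of a group differed by more than the groups. Tmem119, a membrane protein found on microglia but few other brain macrophages, was at 21.8 and 21.1 CPM in WT WD and at 21.0 and 23.5 CPM in Tas1r3-/- WD. Csf1r, which shares exonic bases with Hmgxb3 on the opposite strand, was at 93.8 and 78.6 CPM in WT WD and at 87.4 and 77.9 CPM in Tas1r3-/- WD. Neither gene separated the genotypes. Aif1, the gene of the microglial stain IBA1, was between 3.16 and 5.11 CPM, and Siglech, a sialic acid receptor, between 9.56 and 11.6 CPM.

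**Figure D3:**
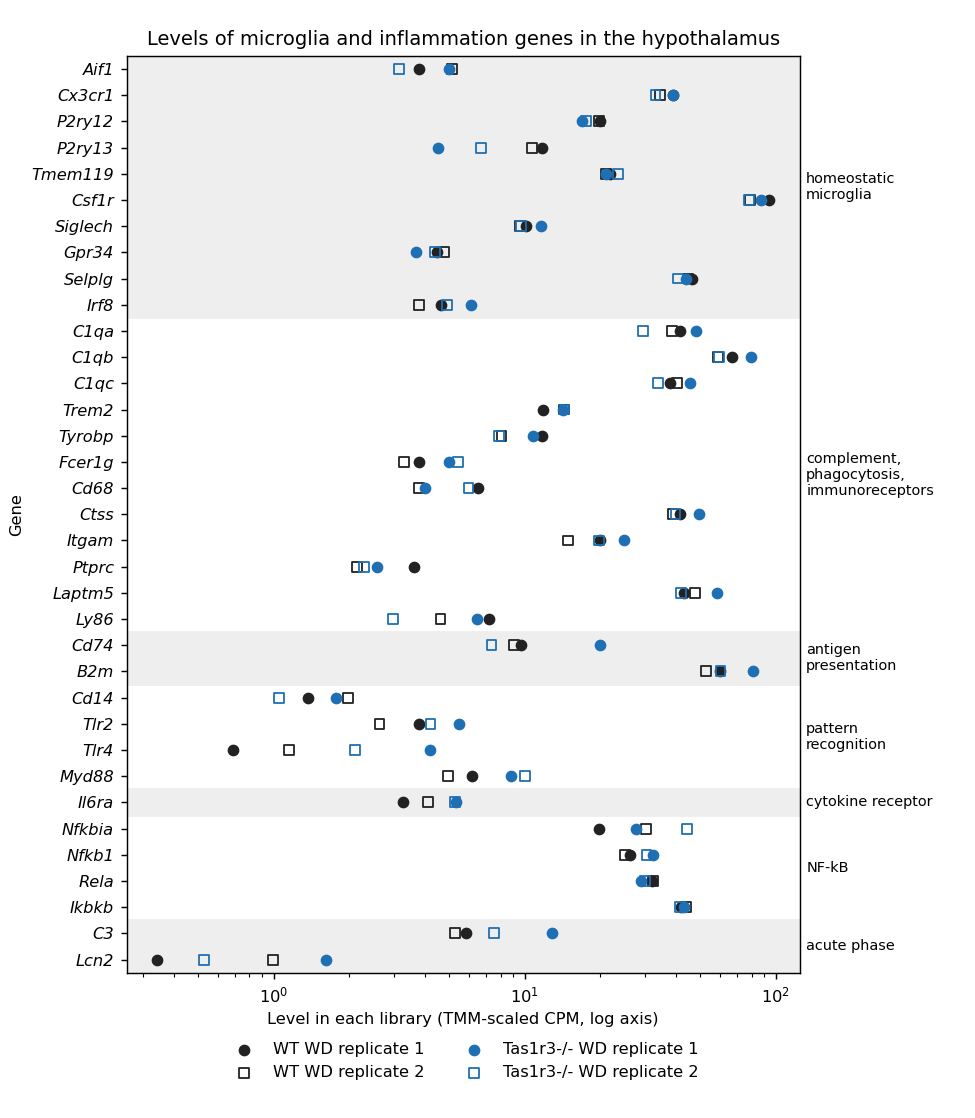
Level of each of the 35 members with a row in each library (x axis, TMM-scaled CPM, log axis), with black symbols for WT WD and blue symbols for Tas1r3-/- WD. Among the homeostatic genes the symbols lie closest together for Tmem119 and farthest apart for P2ry13, and those of Tlr4 and C3 are spread widest among the genes higher in both knockout libraries.

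The summed level of the complement, phagocytosis and immunoreceptor genes differed more between the knockout replicates than between the genotypes. Their sum was 295 and 275 CPM in WT WD replicates 1 and 2 and 348 and 263 CPM in Tas1r3-/- WD replicates 1 and 2, so the knockout libraries held both the highest and the lowest sum. The groups overlapped for 11 of the 12 genes, or 91.7%, beside 60.4% of all genes tested. The exception was Fcer1g, the signaling chain shared by Fc receptors, at 3.78 and 3.30 CPM in WT WD and at 4.98 and 5.44 CPM in Tas1r3-/- WD. For Fcer1g the log2 fold change was 0.56 ± 0.32 (SE), with an adjusted p of 0.756 by edgeR's quasi-likelihood test, from 22 and 20 against 31 and 31 counts.

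C1qa, C1qb and C1qc encode the chains of C1q, the recognition unit of the classical complement pathway, which microglia make for most of the brain. The 3 genes lie side by side on chromosome 4 between 136606009 and 136626161. C1qa was at 41.6 and 38.6 CPM in WT WD and at 47.9 and 29.5 CPM in Tas1r3-/- WD. C1qb was at 66.6 and 58.7 CPM in WT WD and at 79.7 and 59.1 CPM in Tas1r3-/- WD. C1qc was at 37.96 and 40.20 CPM in WT WD and at 45.3 and 34.0 CPM in Tas1r3-/- WD. All 3 were highest in Tas1r3-/- WD replicate 1, and the median log2 difference between the knockout replicates was 0.43, against 0.11 between the WT replicates. Their log2 fold changes between the genotypes were -0.05, 0.15 and 0.02, with adjusted p-values of 0.967, 0.842 and 0.980 by edgeR's quasi-likelihood test.

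Stretches of the C1qb and C1qc promoters are shown because both genes were highest in Tas1r3-/- WD replicate 1, although the WT libraries had opposite orders. Capitals mark GAGGAA, a core letter string of PU.1, the lineage factor of myeloid cells. C1qa was highest in that library too, but it was not among the members in which the string was found. The sequences are from RefSeq's promoter table (GRCm38.p6), placed on GRCm39 by exact match, and read 5′ to 3′ on the minus strand that carries both genes, so that in C1qc the string appears as its reverse complement.
C1qb, chr4:136613512-136613571: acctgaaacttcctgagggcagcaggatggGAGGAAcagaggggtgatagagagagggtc
C1qc, chr4:136620386-136620445: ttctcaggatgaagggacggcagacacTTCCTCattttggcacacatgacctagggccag
Searched on both strands in the 250 bases before the start, GAGGAA was in 13 of 28 promoters of members, or 46.4%, and in 7639 of 32851 promoters of all genes, or 23.3%. The table held a promoter for 26 member genes and none for 12. The string was chosen with the members known, and a match describes letters in a window and not a bound site.

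Among the other phagocytic genes, Tas1r3-/- WD replicate 1 was the highest library for Ctss, which encodes the lysosomal protease cathepsin S, for Itgam, the CD11b chain of complement receptor 3, and for Laptm5, a lysosomal protein of blood lineage cells. Ctss was at 41.6 and 39.0 CPM in WT WD and at 49.3 and 39.8 CPM in Tas1r3-/- WD. Itgam was at 19.9 and 14.8 CPM in WT WD and at 24.7 and 19.8 CPM in Tas1r3-/- WD. Laptm5 was at 43.1 and 47.8 CPM in WT WD and at 58.0 and 41.9 CPM in Tas1r3-/- WD. The other knockout library lay inside the WT range for Ctss and Itgam and just below it for Laptm5.

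Trem2, a lipid receptor, and Tyrobp, the adaptor through which it signals, did not share an order of libraries. Trem2 was at 11.9 and 14.3 CPM in WT WD and at 14.1 and 14.4 CPM in Tas1r3-/- WD, whereas Tyrobp was at 11.7 and 8.07 CPM in WT WD and at 10.8 and 7.89 CPM in Tas1r3-/- WD. Cd68, a lysosomal glycoprotein used as a phagocytosis marker, was at 6.53 and 3.79 CPM in WT WD and at 4.02 and 5.96 CPM in Tas1r3-/- WD. Both knockout libraries of Cd68 lay inside the WT range. Ptprc, the leukocyte antigen CD45, was between 2.14 and 3.61 CPM, and Ly86, which encodes the partner MD-1 of a Toll-like receptor relative, was between 2.98 and 7.21 CPM with both extremes in different groups.

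**Figure D4:**
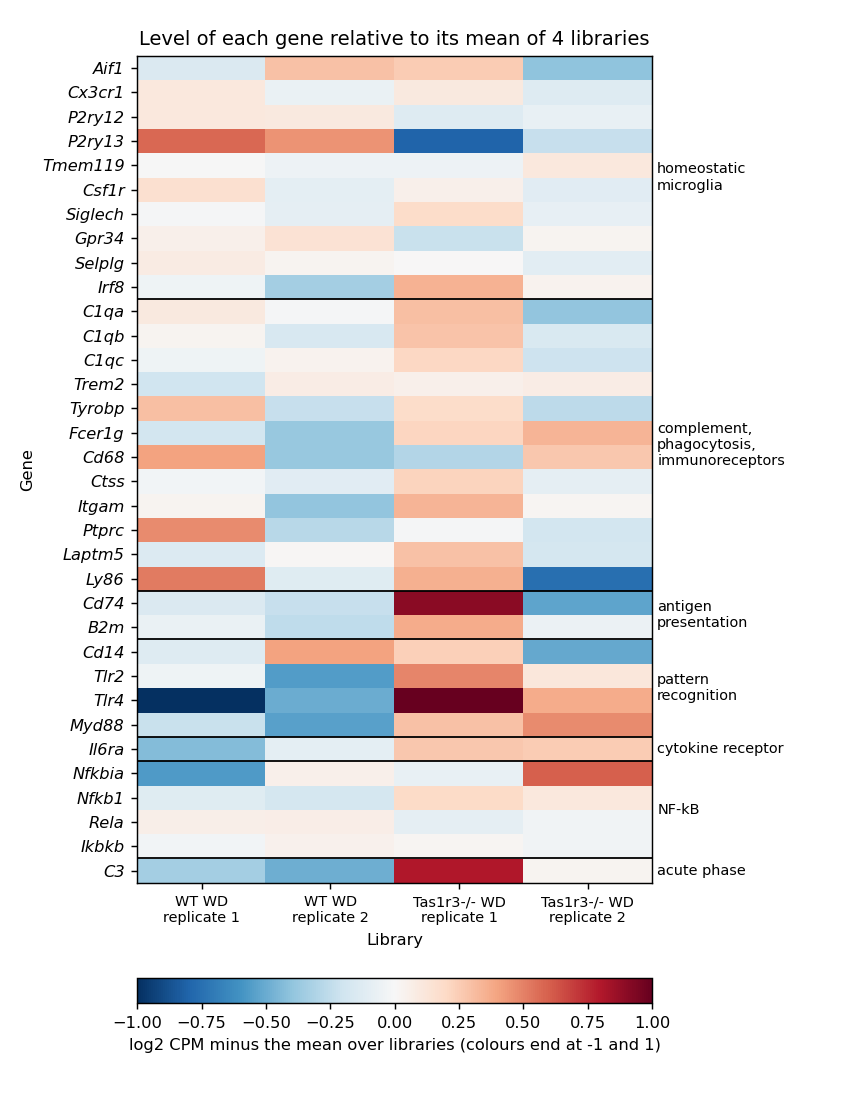
Log2 CPM of each tested member minus its mean over the 4 libraries, as colors that end at -1 and 1, with genes as rows and libraries as columns. Tas1r3-/- WD replicate 1 is the reddest column through the complement and antigen presentation genes, and it was the highest library for 15 of the 34 members and for 22.3% of all genes tested.

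The antigen presentation genes followed the same library. Cd74 (chr18:60936899-60945731, plus strand), the invariant chain that guards MHC class II on its way to the lysosome, was at 9.62 and 9.06 CPM in WT WD and at 19.9 and 7.36 CPM in Tas1r3-/- WD. The knockout libraries thus gave the highest and the lowest value, and the log2 fold change of 0.55 ± 0.50 (SE) became -0.34 without Tas1r3-/- WD replicate 1. The class II chains H2-Aa, H2-Ab1 and H2-Eb1 had the same pattern, and with Cd74 they summed to 21.8, 19.9, 45.3 and 13.7 CPM in WT WD replicates 1 and 2 and Tas1r3-/- WD replicates 1 and 2. In that library the pituitary hormone genes were high, as given above, and perivascular macrophage genes summed to 27.3 CPM, against 18.0, 18.6 and 21.2 CPM in the others. Genes of the meninges summed to 157 CPM there, against 116, 98.2 and 82.4 CPM, and genes of the striatum to 509 CPM, against 353, 209 and 328 CPM. The part of any of these in the values was not tested.

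B2m, the light chain of MHC class I, had the highest level per length of all members, at 58.3 CPM per kb. It was at 59.8 and 52.6 CPM in WT WD and at 81.0 and 60.1 CPM in Tas1r3-/- WD. Both knockout libraries were above both WT libraries by a narrow margin for replicate 2. The log2 fold change was 0.33 ± 0.19 (SE), and 0.10 without Tas1r3-/- WD replicate 1. Of 17 tested genes of MHC class I and II outside the members, 0 passed the adjusted test, and 4 lay above (23.5%) and 0 below in both knockout libraries, beside 20.6% and 19% of all genes. H2-DMb1 passed the low-count filter only through the knockout libraries, and without it the share above was 18.8%. The most abundant, H2-D1, was at 89.3 and 54.0 CPM in WT WD and at 90.4 and 87.0 CPM in Tas1r3-/- WD.

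The largest difference among the tested members was that of a pattern recognition gene. Tlr4 (chr4:66745783-66849936, plus strand), the receptor for bacterial lipopolysaccharide that saturated fat has been linked to, was at 0.687 and 1.15 CPM in WT WD and at 4.18 and 2.10 CPM in Tas1r3-/- WD. These values came from 4 and 7 against 26 and 12 counts, the lowest level per length of all tested members. Both knockout libraries were above both WT libraries and differed from each other by 0.89 on the log2 scale. The log2 fold change was 1.75 ± 0.61 (SE), with an unadjusted p of 0.0352 and an adjusted p of 0.756 by edgeR's quasi-likelihood test, and it ran from 1.17 to 2.17 when each library was left out. Tlr4 passed the low-count filter, which stood at 1.67 CPM in 2 libraries, only through the knockout libraries, and with its WT levels it could not have entered the test without a higher level in them.

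Myd88 (chr9:119165000-119170486, minus strand), the adaptor of most Toll-like receptors and of the interleukin 1 receptor, was at 6.18 and 4.94 CPM in WT WD and at 8.84 and 10.0 CPM in Tas1r3-/- WD. The groups did not overlap and both gaps within groups were smaller than the gap between them. The means were 5.56 ± 0.877 and 9.42 ± 0.819 CPM (SD, n = 2). The log2 fold change was 0.76 ± 0.28 (SE), with an unadjusted p of 0.0419 and an adjusted p of 0.756 by edgeR's quasi-likelihood test, and ran from 0.60 to 0.93 when each library was left out. Myd88 shares exonic bases with Acaa1a on the opposite strand, so reads of the pair could not be separated if strand was not used.

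Tlr2, the receptor for bacterial lipoproteins, was at 3.78 and 2.64 CPM in WT WD and at 5.46 and 4.21 CPM in Tas1r3-/- WD. Its groups did not overlap, with a log2 fold change of 0.59 ± 0.38 (SE). Leaving out WT WD replicate 2 lowered it to 0.36, and leaving out the knockout replicate 1 to 0.39. Cd14, the coreceptor that hands lipopolysaccharide to TLR4, was at 1.37 and 1.98 CPM in WT WD and at 1.77 and 1.05 CPM in Tas1r3-/- WD, from 6 to 12 counts. It overlapped between the groups and did not share the order of Tlr4.

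Among cytokine genes, Il6ra, the ligand-binding chain of the interleukin 6 receptor, was the member with a row. It was at 3.26 and 4.12 CPM in WT WD and at 5.30 and 5.26 CPM in Tas1r3-/- WD. The knockout libraries were nearly equal and above both WT libraries, and the log2 fold change was 0.51 ± 0.33 (SE), with an adjusted p of 0.760 by edgeR's quasi-likelihood test.

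Of the 4 NF-kB members, 3 had log2 fold changes of 0.30 or less in size and Nfkbia had a larger one. Nfkb1, which encodes the p105 precursor of p50, was at 26.1 and 25.0 CPM in WT WD and at 32.3 and 30.5 CPM in Tas1r3-/- WD. Rela, which encodes the p65 partner of p50, was at 32.1 and 32.3 CPM in WT WD and at 28.9 and 30.0 CPM in Tas1r3-/- WD. Thus for both subunit genes the groups did not overlap, in opposite directions, with log2 fold changes of 0.30 ± 0.15 and -0.13 ± 0.14 (SE). Ikbkb, the catalytic IKK-beta subunit, was between 41.6 and 44.0 CPM in all libraries, with a log2 fold change of -0.02 ± 0.13 (SE).

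Nfkbia (chr12:55535332-55539432, minus strand), the gene of IkB-alpha and a target of NF-kB, was at 19.8 and 30.3 CPM in WT WD and at 27.8 and 44.4 CPM in Tas1r3-/- WD. The groups overlapped, and each group had a low and a high library that differed by 0.61 and 0.67 on the log2 scale. The log2 fold change was 0.52 ± 0.32 (SE), with an adjusted p of 0.760 by edgeR's quasi-likelihood test. Leaving out the knockout replicate 2 or the WT replicate 1 lowered it to 0.14 and 0.25, and leaving out the knockout replicate 1 or the WT replicate 2 raised it to 0.82 and 0.86.

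Promoter stretches of Nfkbia, Tlr2 and B2m are shown because these 3 were the members with a kB-type string, GGANTTNCC, where N is any base, and capitals mark it. They were taken and placed on GRCm39 as for the C1q genes and read 5′ to 3′ on the strand of the gene, so that the capitals in B2m and those nearer the start in Nfkbia are its reverse complement.
Nfkbia, chr12:55539443-55539622, minus strand: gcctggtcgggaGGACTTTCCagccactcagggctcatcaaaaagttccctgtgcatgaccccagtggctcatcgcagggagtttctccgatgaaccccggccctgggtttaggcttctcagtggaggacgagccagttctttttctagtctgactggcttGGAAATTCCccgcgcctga
Tlr2, chr3:83749069-83749098, minus strand: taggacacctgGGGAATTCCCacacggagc
B2m, chr2:121978033-121978062, plus strand: ctgaaaatgGGAAAGTCCctttgtaaccta
On both strands of the 250 bases before the start, the string was in 3 of 28 promoters of members, or 10.7%, and in 1035 of 32851 promoters of all genes, or 3.15%. In Nfkbia it began 178 and 29 bases before the start, and in Tlr2 matches on the 2 strands overlapped. Tlr2 and B2m were higher in both knockout libraries, whereas Nfkbia overlapped between the groups. The string was chosen with the members known, and says nothing of binding in this tissue.

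Acute phase genes differed between the knockout replicates as the antigen presentation genes did. C3 (chr17:57510964-57535155, minus strand), the central complement component, was at 5.84 and 5.27 CPM in WT WD and at 12.9 and 7.54 CPM in Tas1r3-/- WD. Both knockout libraries were above both WT libraries, at means of 5.56 ± 0.401 and 10.2 ± 3.76 CPM (SD, n = 2). The log2 fold change was 0.88 ± 0.35 (SE), with an unadjusted p of 0.0578 and an adjusted p of 0.756 by edgeR's quasi-likelihood test, and it was 0.44 without Tas1r3-/- WD replicate 1. Lcn2, which encodes the iron-sequestering lipocalin 2, was at 0.344 and 0.989 CPM in WT WD and at 1.61 and 0.526 CPM in Tas1r3-/- WD. These were 2, 6, 10 and 3 counts, too few for the test.

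Further genes of the NF-kB and Toll-like receptor pathway numbered 55, of which 49 had a row and 41 were tested. None passed the adjusted test, with 11 above (26.8%) and 4 below (9.76%) in both knockout libraries, beside 20.6% and 19% of all genes, and a median log2 fold change of 0.07. Over the 41 tested genes, this median ran from 0.011 to 0.13 when each library was left out in turn. Cyld, a deubiquitinase that restrains NF-kB, was the most abundant, at 117 and 124 CPM in WT WD and at 130 and 129 CPM in Tas1r3-/- WD. Tnfrsf1b, the second receptor of tumor necrosis factor, had the highest log2 fold change among genes with a mean of at least 5 CPM, at 0.59 ± 0.37 (SE). Map3k14, the kinase NIK of the noncanonical pathway, had the lowest at -0.56 ± 0.40 (SE). Tab1, a TAK1 binding protein named after its value was seen, was the gene of the list with an unadjusted p under 0.05, and was at 53.4 and 48.3 CPM in WT WD and at 39.8 and 36.3 CPM in Tas1r3-/- WD. Ly96, Il1a, Il6, Cxcl10, Cxcl1 and Tlr6 had no row.

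A further 38 microglia genes were all tested and none passed, with 12 above (31.6%) and 4 below (10.5%) in both knockout libraries, beside 20.6% and 19% of all genes. Their median log2 fold change was 0.12, and -0.054 without Tas1r3-/- WD replicate 1, the highest library for 18 of the 38 genes. P2ry6 passed the low-count filter only through the knockout libraries, and without it the share above was 29.7%. Plcg2, a phospholipase downstream of TREM2 and Fc receptors, had the highest log2 fold change among those with a mean of at least 5 CPM, at 6.53 and 5.77 CPM in WT WD and at 10.8 and 9.64 CPM in Tas1r3-/- WD. Mertk, a receptor for the engulfment of dying cells and named after its value was seen, was at 23.9 and 28.3 CPM in WT WD and at 42.3 and 38.4 CPM in Tas1r3-/- WD. The groups of both genes did not overlap, and their unadjusted p-values were 0.0352 and 0.0128, with an adjusted p of 0.756 by edgeR's quasi-likelihood test. Mertk is also abundant in astrocytes. Mef2c, a factor of microglia and of cortical neurons, had the lowest log2 fold change of the list at -0.81 ± 0.55 (SE), with 66.1 CPM in WT WD replicate 2 and between 21.3 and 28.3 CPM in the others.

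Genes that microglia switch on around plaques and damage form a list of their own. Of 20 disease-associated genes, 17 had a row and 12 were tested, with 0 above and 2 below (16.7%) in both knockout libraries, beside 20.6% and 19% of all genes, and a median log2 fold change of -0.05. Over these 12 genes, the median ran from -0.13 to -0.0046 when each library was left out in turn. Igf1, a growth factor, had the lowest log2 fold change among those with a mean of at least 5 CPM, at -1.04 ± 0.86 (SE). It was at 2.40 and 15.0 CPM in WT WD and at 3.37 and 5.08 CPM in Tas1r3-/- WD, so the WT libraries gave both the lowest and the highest value. Apoe, the lipid carrier made mainly by astrocytes in healthy brain, was the most abundant, at 2448 and 1975 CPM in WT WD and at 2151 and 2312 CPM in Tas1r3-/- WD. Clec7a and Itgax, a receptor and an integrin of that state, were under 1 CPM in every library, and Cst7, Ccl3 and Ccl4 had no row. Ligands that keep microglia at rest were led by Cx3cl1, the neuronal partner of Cx3cr1, at 425 and 609 CPM in WT WD and at 407 and 392 CPM in Tas1r3-/- WD. Cx3cl1 had a log2 fold change of -0.37 ± 0.21 (SE), and was highest in the library with thalamic transcripts.

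Interferon-induced genes and other complement genes were tested beside the members. Of 22 tested interferon-induced genes, 8 lay above (36.4%) and 1 below (4.55%) in both knockout libraries, beside 20.6% and 19% of all genes. Their median log2 fold change was 0.18, and it ran from 0.11 to 0.28 when each library was left out in turn. Oasl2, an antiviral gene, was at 6.87 and 3.46 CPM in WT WD and at 16.5 and 9.12 CPM in Tas1r3-/- WD, with a log2 fold change of 1.31 ± 0.48 (SE). Trim30a, a regulator of Toll-like receptor signaling named after its value was seen, was at 1.37 and 0.659 CPM in WT WD and at 4.98 and 2.45 CPM in Tas1r3-/- WD. These were the genes of the list with an unadjusted p under 0.05, at 0.0408 and 0.0324, and an adjusted p of 0.756 by edgeR's quasi-likelihood test. Trim30a passed the low-count filter only through the knockout libraries, so its p was not independent of its higher level there. Without it 7 of 21 lay above (33.3%), and the median log2 fold change of the list was 0.098. Stat2, a subunit of the factor that interferon activates, was the most abundant and had the lowest log2 fold change, at -0.46 ± 0.22 (SE). Of 9 tested complement genes outside the members, 2 lay above (22.2%) and 3 below (33.3%), beside the same 20.6% and 19%. Log2 fold changes of these 9 genes ran from -0.47 to 0.72, with a median of 0.09. C4b, which acts directly before C3, was among those above. It was at 79.9 and 46.3 CPM in WT WD and at 88.5 and 99.9 CPM in Tas1r3-/- WD.

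Marker genes of other immune cells were measured at low levels. Perivascular macrophage genes were 8 of 12 with a row, led by Stab1, and summed to between 18.0 and 27.3 CPM, while Ms4a7 and Ccr1 had no row. Monocyte and neutrophil genes summed to between 1.45 and 3.51 CPM, led by S100a9, and the defining monocyte genes Ccr2 and Ly6c2 had no row. Lymphocyte genes summed to between 2.47 and 6.70 CPM, led by Lck, which neurons also transcribe, and Cd3e had no row. Astrocyte genes summed to between 4071 and 4399 CPM, the highest being 1.08 times the lowest. The part of any of these cell types in the values of the members was not tested.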

How the data were processed

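Hypothalamic RNA from 2 WT WD and 2 Tas1r3-/- WD samples was made into barcoded Ion Torrent libraries. For alignment the authors used STAR on the mm39 build within Partek Flow, and they deposited an estimated count (expected count) for each RefSeq transcript and library, without normalization. Of these values 13% were whole numbers, and the tables of single samples were identical to the columns of the joint table. Of 30930 transcripts, 30891 were assigned to a gene by RefSeq accession and summed to 16339 genes, where the design had assumed counts for genes, and were rounded for the count models. The 39 transcripts without a name held between 0.347% and 2.49% of the counts of a library and were left out. Groups were compared in edgeR 4.0.16 under R 4.3.3 (TMM, filterByExpr, quasi-likelihood test, Benjamini-Hochberg adjustment over all genes tested), and a gene was called at a fold change of 1.5 or more with an adjusted p below 0.05. The limit of 3 counts covers counting error only.

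Alternatives were DESeq2 1.42.0, limma-trend in limma 3.58.1, RLE size factors, total counts, other low-count filters, a replicate block, no fold change threshold, and leaving out each library. The scripts were tested on simulated data. Members and lists were chosen with earlier results of these data known. All members are named. Of other lists, the 3 most abundant genes and, for 6 of them, the highest and lowest log2 fold change at a mean of at least 5 CPM could be named. Positions are from GENCODE M39 on GRCm39. Plots used matplotlib 3.10.9 (Python 3.11.15).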

Additional observations from a re-analysis of the deposited data

How the results depend on the processing

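No member passed the adjusted test under any alternative, and in 277 values from other tools, scalings, filters, thresholds and the block no member or Tas1r3 turned its direction. The count of genes over the whole table was 8 with DESeq2 and 0 with limma-trend, where 779 genes had an unadjusted p under 0.05 against 772 in edgeR. When each library was left out in turn, which assumes that the lone library of a group varies like the other group, that count ran from 0 to 2122. The highest value came without WT WD replicate 1, when the WT group was the library with thalamic transcripts. Leaving out WT WD replicate 2 gave 32 calls, and leaving out either Tas1r3-/- WD library gave 0. The cause was not tested. Over the same fits the median log2 fold change ran from -0.063 to 0.18 for all members, from -0.15 to -9.86e-04 for homeostatic genes, from -0.10 to 0.23 for complement, phagocytic and immunoreceptor genes and from 0.32 to 0.52 for inflammation and antigen presentation genes. The log2 ratio of the summed level of the complement, phagocytic and immunoreceptor genes ran from -0.12 to 0.29. With 3 libraries, which separate more easily by construction, 11 to 17 members had all remaining knockout libraries above all remaining WT libraries. For 6 to 16 members the remaining knockout libraries lay below.

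Of 140 values with a library left out, 28 turned direction, in 18 genes. Their log2 fold changes ran from -0.49 to 0.16 for Aif1, -0.15 to 0.073 for Cx3cr1, -0.034 to 0.13 for Tmem119, -0.18 to 0.079 for Csf1r, -0.030 to 0.23 for Siglech, -0.44 to 0.25 for C1qa, -0.085 to 0.34 for C1qb, -0.20 to 0.21 for C1qc, -0.0023 to 0.27 for Trem2, -0.32 to 0.22 for Tyrobp, -0.39 to 0.40 for Cd68, -0.019 to 0.28 for Ctss, -0.57 to 0.18 for Ptprc, -0.12 to 0.35 for Laptm5, -0.98 to 0.11 for Ly86, -0.34 to 1.08 for Cd74, -0.66 to 0.068 for Cd14 and -0.048 to 0.017 for Ikbkb.

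The labels number the replicates 1 and 2 in both groups. Same-numbered samples did not deviate together, since the differences between replicates 1 and 2 of the groups had a correlation of 0.0821 across 14344 genes, which are not independent. With the replicate block, edgeR called 0 genes and 667 had an unadjusted p under 0.05, and the member medians were 0.08 for all members, -0.08 for homeostatic genes, 0.07 for complement, phagocytic and immunoreceptor genes and 0.47 for inflammation and antigen presentation genes. At these depths genes at the level of Tlr4 or Lcn2 rest on few counts.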
